A study of Mus musculus with 4 samples.

Results

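Runx3-bound regions were examined at 8 genes that mark cDC1, the XCR1+CD8α+ conventional dendritic cells (DC), in DC of the other conventional subset. The genes were Xcr1, Clec9a, Cadm1, Cd24a, Wdfy4, Naaa, Btla and Ly75. A Runx3 peak was assigned to a gene when its centre lay in the gene body or within 50 kb of it, with gene bodies taken from GENCODE M1 on mm9. This rule gave 27 of the 15121 peaks of the list, and no peak lay in the windows of 2 of these genes. The chromatin came from freshly sorted splenic CD11chiMHCII+CD4+ DC of wild-type C57BL/6 mice. A pool of about 15 animals is given for each of the 4 samples. One of the input samples carries the strain name C57BL/7 in its label. There were 2 immunoprecipitates with a home-made polyclonal anti-Runx3 antibody and 2 inputs of fragmented chromatin of the whole cell extract. The label calls the immunoprecipitations biological replicates. All 4 samples came from wild-type cells, and bound regions were called against input chromatin and not against cells without Runx3.

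The peaks came from 1 call on both immunoprecipitates against both inputs. No peak therefore has a value per replicate, no spread between replicates can be given, and no test over samples was possible. The peak list does not show the read depth of each sample, so a gene or interval without a peak is one where none was called at this depth. Peaks ran from a score of 1.33 to 309.3, with a median of 12.14 and an upper quartile of 23.19. The score is the number that MACS2 wrote, and its unit is not stated. It was used to order peaks within the list. Peaks do not measure RNA, so the identity of the sorted cells could not be checked against marker genes.

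Runx3 is a transcription factor with a Runt domain, which binds the hexamer TGTGGT together with its partner Cbfβ and can activate or repress genes. cDC1 take up dead cells and present their antigens to CD8+ T cells, a process called cross-presentation. The CD4+ DC sorted here belong to the cDC2 subset, which mainly primes CD4+ T cells. The marker genes serve the uptake and handling of antigen (Clec9a, Ly75, Wdfy4), signalling at the cell surface (Xcr1, Btla), adhesion and other surface functions (Cadm1, Cd24a) and lipid hydrolysis (Naaa).

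The mm9 plus-strand sequence of the peak with the highest score at each gene, and of the peaks within 1 kb of a transcription start site (TSS) of the gene, is shown because these are the regions to which the scores and distances below refer. Each run is 120 bases, placed around the TGTGGT nearest the peak centre, or around the centre where the peak holds none. Capitals mark TGTGGT and the variant TGCGGT, which on the other strand read ACCACA and ACCGCA.
Clec9a downstream peak, chr6:129384387-129384506: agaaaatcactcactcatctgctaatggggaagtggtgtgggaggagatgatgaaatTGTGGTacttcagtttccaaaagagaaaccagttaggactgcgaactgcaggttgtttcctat
Ly75 intron 33 peak, chr2:60137523-60137642: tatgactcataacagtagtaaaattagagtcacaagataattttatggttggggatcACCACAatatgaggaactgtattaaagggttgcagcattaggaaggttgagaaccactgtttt
Wdfy4 intron 1 peak, chr14:33982177-33982296: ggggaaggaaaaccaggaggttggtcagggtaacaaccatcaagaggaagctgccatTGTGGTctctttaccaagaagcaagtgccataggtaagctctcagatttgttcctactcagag
Wdfy4 TSS peak, chr14:33998311-33998430: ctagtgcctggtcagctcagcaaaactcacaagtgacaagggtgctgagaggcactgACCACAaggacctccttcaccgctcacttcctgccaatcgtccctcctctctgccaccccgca
Xcr1 downstream peak, chr9:123749483-123749602: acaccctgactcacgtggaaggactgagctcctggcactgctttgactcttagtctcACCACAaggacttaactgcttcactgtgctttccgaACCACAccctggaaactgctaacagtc
Btla downstream peak, chr16:45257793-45257912: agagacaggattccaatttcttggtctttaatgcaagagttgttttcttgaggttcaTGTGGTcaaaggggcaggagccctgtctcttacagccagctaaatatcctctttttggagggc
Btla TSS peak, chr16:45224194-45224313: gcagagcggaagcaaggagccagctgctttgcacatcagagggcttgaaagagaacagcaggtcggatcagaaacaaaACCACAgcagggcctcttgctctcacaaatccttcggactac
Cadm1 intron 1 peak, chr9:47542110-47542229: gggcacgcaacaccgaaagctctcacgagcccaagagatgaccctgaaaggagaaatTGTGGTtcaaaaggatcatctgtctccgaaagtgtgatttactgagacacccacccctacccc
Cd24a upstream peak, chr10:43260626-43260745: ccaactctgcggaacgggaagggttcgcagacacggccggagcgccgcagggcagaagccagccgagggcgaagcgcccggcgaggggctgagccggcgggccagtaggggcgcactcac
Naaa downstream peak, chr5:92674632-92674751: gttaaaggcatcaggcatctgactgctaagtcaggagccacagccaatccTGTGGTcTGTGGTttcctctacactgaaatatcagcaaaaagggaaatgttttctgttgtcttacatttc
TGTGGT was present in each of these regions except that of Cd24a. The Cd24a peak held 1 TGCGGT, 99 bp from its centre and outside the bases shown.

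All 8 genes had at least 1 peak in their window. Of the 22367 protein-coding genes of the annotation 62.6% did, so a peak at this distance was common. The number of peaks was 10 at Wdfy4, 4 at Xcr1, 3 each at Clec9a, Cadm1 and Naaa, 2 at Btla and 1 each at Cd24a and Ly75. The median was 3 peaks per gene, against 1 over all protein-coding genes. Because long genes have long windows, the counts were also taken per 100 kb of window, where the median was 2.02 for the 8 genes and 0.880 for all protein-coding genes. By this density Xcr1 stood highest with 3.64 peaks per 100 kb, at the percentile 88.4 of protein-coding genes, and Wdfy4 next with 3.07, at the percentile 85.1. Ly75 and Cadm1 had 0.523 and 0.702 peaks per 100 kb, at the percentiles 40.0 and 43.4. Cadm1, with as many peaks as Clec9a and Naaa, had the longest body of the 8 genes, 327.465 kb, and so a lower density than either.

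**Figure D1:**
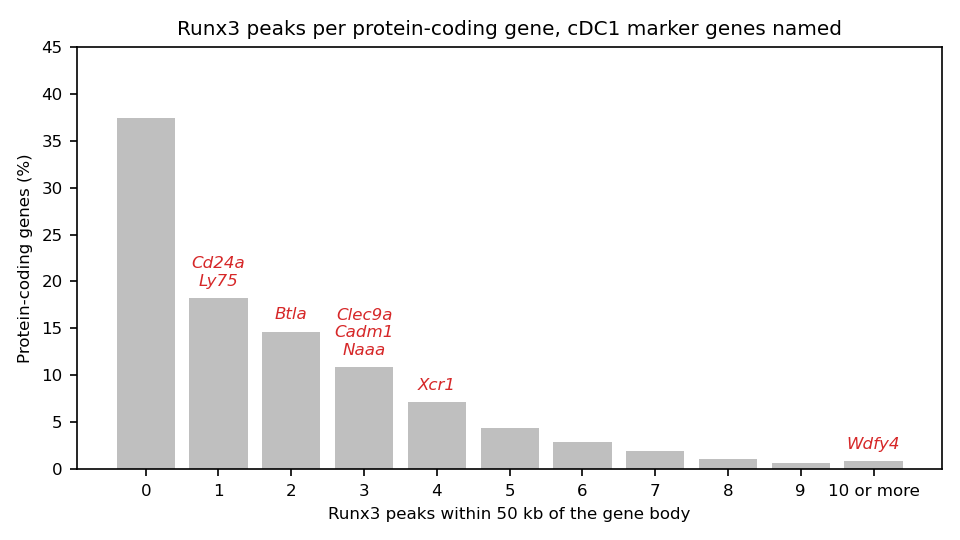
Bars give the percentage of the 22367 protein-coding genes (vertical axis) with each number of Runx3 peaks within 50 kb of the body (horizontal axis), and the 8 cDC1 marker genes are named over the bar of their count. None of the 8 genes stands over the bar at 0, which holds 37.4% of protein-coding genes, and Wdfy4 stands with the 0.827% that had 10 or more peaks.

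Binding inside the gene itself was found for fewer of them. A peak centre lay in the body of Xcr1, Cadm1, Wdfy4 and Ly75, or 4 of the 8 genes, against 23.2% of protein-coding genes. The share differed with body length. All 5 genes with a body under 50 kb had a peak within 50 kb, where 61.3% of such protein-coding genes did, and all 3 longer genes did, against 67.2%. Of the 3 genes with a body of 50 kb or more, all had a peak inside the body, where 40.8% of such protein-coding genes did, and of the 5 shorter genes 1 did, where 18.3% of such genes did. This division by length was chosen after the values were seen. A peak within 1 kb of a TSS was found at Wdfy4 and Btla, or 2 of the 8 genes, against 24.9% of protein-coding genes, a share near this background. Of the 27 peaks 13 were centred in the body of the marker gene, 10 of these in an intron and 2 in an exon of its longest protein-coding transcript. The other peak in a body, at the Wdfy4 TSS, lay upstream of that transcript. Outside the bodies 9 peaks lay upstream and 5 downstream.

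Windows of 50 kb reach into neighbouring genes, so each peak was also given to the protein-coding gene whose body was nearest. The marker gene was the nearest for 18 of the 27 peaks, and 6 of the 8 genes were nearest to a peak, against 35.4% of protein-coding genes. For Clec9a and Cd24a no peak had the marker gene as its nearest. All 9 peaks that were nearest to another gene were centred inside the body of that gene. Of the 27 peaks 8 lay in the window of no other protein-coding gene, and the rest lay in up to 4 other windows.

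At the genes for the uptake and handling of antigen, Clec9a had the peak with the highest score of the 27. Clec9a encodes a C-type lectin receptor that recognises actin filaments exposed by dead cells. It is annotated on chromosome 6 from 129358880 to 129374780 on the plus strand. The peak on chromosome 6 from 129384186 to 129384701 scored 85.54, at the percentile 98.1 and rank 282 of the list. It lay 9663 bp beyond the end of Clec9a, in intron 3 of the neighbouring lectin gene Clec1a, and held 2 copies of TGTGGT. One of them lay 3 bp from the peak centre. The other peaks lay upstream of the Clec9a TSS. The peak from 129357270 to 129357682, centred 1404 bp upstream, scored 17.32 and held 2 TGTGGT. The peak from 129356005 to 129356331, centred 2712 bp upstream, scored 11.24 and held none. Both upstream peaks also lay within the annotated extents of Clec1b and Clec1a, which overlap each other and Clec9a, so that the peaks cannot be given to 1 of these genes by position alone.

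Ly75 encodes DEC-205, an endocytic receptor that carries antigen to the compartments for processing. Its body runs on chromosome 2 from 60130160 to 60221360 on the minus strand. The single peak, from 60137304 to 60137733, scored 20.67, at the percentile 71.6, and lay in intron 33, near the 3′ end and 83791 bp from the nearest TSS of the gene. The peak also lay in the windows of 2 other protein-coding genes, and the closest TSS of any gene was 14973 bp away. It held 1 TGTGGT 64 bp from the centre. The motif TGANTCA, which AP-1 and BATF factors bind, lay 10 bp from the centre.

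Wdfy4 had the most peaks. It encodes a large protein with BEACH and WD40 domains that cDC1 need for cross-presentation of antigen from cells. Its body runs on chromosome 14 from 33772733 to 33998694 on the minus strand, and 7 of its 10 peaks were centred inside. The strongest, from 33981888 to 33982404 in intron 1, scored 64.19, at the percentile 96.1 and rank 590, and lay 16548 bp downstream of the outermost TSS. It held 1 TGTGGT 90 bp from the centre and TGANTCA 2 times. The peak nearest a TSS, from 33998136 to 33998936, covered the outermost TSS, with its centre 158 bp downstream of it. It scored 16.28 and was the widest of the 27 peaks, with 801 bp. The weakest, from 33953666 to 33953920 in exon 11, scored 3.69, at rank 14412 of the list, and held none of the motifs searched. Scores at Wdfy4 thus ran from the lowest of the 27 peaks to the second highest.

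The other Wdfy4 peaks in the body scored 48.58 in intron 23, 20.43 in intron 12, 5.79 in intron 2 and 15.73 in intron 1. Of the 3 outside the body, that from 33744824 to 33745349 scored 49.38 and lay in intron 7 of E130203B14Rik, 27647 bp beyond the end of Wdfy4. That from 34029530 to 34029964 scored 27.51 and lay within Arhgap22, 262 bp from the nearest annotated TSS. The third, 8691 bp upstream of Wdfy4, scored 11.24 and held no TGTGGT. Over the 10 peaks 8 held TGTGGT and 4 had a score of the upper quartile.

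The intron 23 peak of Wdfy4, from 33912106 to 33912671, held TGTGGT 7 times, more than any other of the 27 peaks. The hexamers are shown because of their spacing, which was examined after the count was seen. The mm9 plus strand is printed, with capitals as above.
Wdfy4 intron 23 peak, chr14:33912417-33912582: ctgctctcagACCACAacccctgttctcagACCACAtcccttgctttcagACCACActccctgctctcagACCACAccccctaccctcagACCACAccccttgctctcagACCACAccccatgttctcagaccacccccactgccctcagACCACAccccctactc
All 7 hexamers lay on the minus strand, at 41 to 181 bp from the peak centre. Of the 6 steps from one to the next 5 were exactly 20 bp and 1 was 40 bp. Bases 20 bp apart in this stretch of 166 bp were equal in 82.2% of pairs, and at no distance up to 60 bp that is not a multiple of 20 were more than 44.5% equal. The stretch is therefore a tandem array of a unit of 20 bp. Of all peaks of the list 0.172% held TGTGGT 7 or more times.

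Of the receptors for signals between cells, Xcr1 encodes the receptor for the chemokine Xcl1. The gene lies on chromosome 9 from 123761436 to 123771246 on the minus strand. Its 4 peaks scored 5.96 to 18.62. The peak from 123767951 to 123768281, in the only intron, scored 11.98, just below the list median, and lay 3130 bp downstream of the TSS with 1 TGTGGT. The peak from 123762102 to 123762598 in exon 2 scored 5.96, and that from 123781340 to 123781657, centred 10252 bp upstream of the TSS, scored 7.20. Neither held TGTGGT. The strongest, from 123749316 to 123749723, scored 18.62 and lay in intron 4 of the neighbouring Fyco1, an adaptor of vesicle transport, 11917 bp beyond the end of Xcr1. It held TGTGGT 2 times, both in the bases shown.

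Btla encodes an inhibitory receptor of the immunoglobulin family that binds HVEM. It lies on chromosome 16 from 45224428 to 45253008 on the plus strand, with no peak in its body. The peak from 45224061 to 45224313, centred 241 bp upstream of the TSS, scored 4.23, at the percentile 6.53. The peak from 45257662 to 45258017, 4831 bp beyond the end of the gene, scored 23.19, exactly the upper quartile of the list. Each held 1 TGTGGT, 87 bp from the centre of the peak at the TSS and 13 bp from that of the downstream peak. Btla was the nearest protein-coding gene for both.

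Cadm1 encodes an adhesion molecule of the immunoglobulin superfamily. It lies on chromosome 9 from 47338256 to 47665720 on the plus strand, and no other protein-coding gene lay within 50 kb of its peaks. All 3 were in intron 1 of the longest transcript, 203849 to 247204 bp downstream of the outermost TSS and at least 20047 bp upstream of the nearest TSS of another Cadm1 transcript. The peak from 47541712 to 47542498 scored 18.45, that from 47543991 to 47544375 scored 13.43 and that from 47585334 to 47585586 scored 5.86. TGTGGT was present in each, 3, 1 and 2 times in this order. A TGANTCA lay over the centre of the first of these.

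Cd24a encodes a small glycoprotein anchored in the membrane. It lies on chromosome 10 from 43298975 to 43304068 on the plus strand and had no peak close by. The only peak in its window, from 43260526 to 43260844, scored 11.24 and was centred 38290 bp upstream, inside 1700021F05Rik and 89 bp from a TSS of that gene. It held no TGTGGT.

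Naaa encodes a lysosomal amidase that hydrolyses N-acylethanolamines. It lies on chromosome 5 from 92686686 to 92707196 on the minus strand, with no peak in its body. The peak from 92708225 to 92708549, centred 1191 bp upstream of the TSS, scored 13.43. It held no TGTGGT, and the PU.1-like motif GAGGAAGT lay 16 bp from its centre. The strongest peak, from 92674475 to 92675035, scored 22.33 and lay in intron 6 of the neighbouring Ppef2, 11931 bp beyond the end of Naaa. It held TGTGGT 3 times, with 2 of them next to each other, beginning at 92674682 and at 92674689. The third peak, from 92738875 to 92739186, scored 15.73, lay over exon 1 of Sdad1, 20 bp from its TSS, and held no TGTGGT.

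Of the peaks inside the limit of 50 kb, the farthest from its gene was the Cd24a peak with the score of 11.24, at 38290 bp. The nearest outside it lay 50296 bp from Btla and scored 6.57. A peak with a score of 58.55 lay 58747 bp from Clec9a, outside the limit, and was nearest to Clec12a.

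Scores at the marker genes ran from 3.69 to 85.54. The median of the 27 peaks was 15.73 (distribution-free 95% interval 11.24 to 20.67), and the list median of 12.14 lay inside this interval. Of the 27 peaks 17 scored at or above the list median and 6 at or above the upper quartile, or 22.2% (Wilson 95% interval 10.6% to 40.8%) against 25.4% of the list. A peak of the upper quartile was found at Clec9a, Wdfy4 and Btla, or 3 of the 8 genes, against 31.0% of protein-coding genes. Without Wdfy4, an alternative added after seeing the data, the median of the other 17 peaks was 13.43. These intervals cover counting error only, and peaks at 1 gene share a locus and are not independent.

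Measured to the closest annotated TSS of whatever gene, the median distance was 11263 bp for the 27 peaks (distribution-free 95% interval 1404 to 26650 bp), and the list median of 3703 bp lay inside this interval. Within 1 kb of such a TSS lay 5 of them, or 18.5% (Wilson 95% interval 8.18% to 36.7%), against 38.0% of the list, a value just above this interval. These were the peaks at the TSS of Wdfy4 and Btla and those at 1700021F05Rik, Sdad1 and Arhgap22. From 1 to 10 kb lay 7, or 25.9%, against 27.4% of the list. Beyond 10 kb lay 15, or 55.6% (37.3% to 72.4%), against 34.6% of the list, below the interval. The median GC content was 46.7% for the 27 peaks and 50.7% for the list. A ratio of observed to expected CpG of 0.6 or more was found in 2 of the 27 peaks, or 7.41% (2.06% to 23.4%), and in 30.4% of the list, above the interval. Widths were close, with medians of 413 bp and 406 bp. The part of the distance to TSS in the difference in CpG was not tested. These intervals treat the 27 peaks as independent, though 10 of them lay at 1 long gene, Wdfy4, with a body of 225.962 kb. The distances and shares of this paragraph were not taken without Wdfy4, so its part in these differences was not tested.

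All motifs were sought on both strands over the full width of a peak. The hexamer TGTGGT was present in 19 of the 27 peaks, or 70.4% (Wilson 95% interval 51.5% to 84.1%). The list had 54.0%, inside this interval, and windows of equal width 10 kb downstream of the peaks had 30.9%. Of the downstream windows of the 27 peaks, 26 could be used and 4 held it. When only the central 200 bp were searched, 18 of the 27 peaks had the hexamer, or 66.7% (47.8% to 81.4%). The 41.8% of the list lay outside this interval, which treats the 27 peaks as independent, though 10 of them lay at Wdfy4. The central search was not repeated without Wdfy4. Over full peaks, 64.7% of the 17 peaks at the other genes held the hexamer. The TGTGGT nearest the centre lay 3 to 166 bp from it, with a median of 41 bp. At the marker genes as in the list, peaks with TGTGGT scored higher than those without. The medians were 18.62 and 11.24 for the 27 peaks and 14.20 and 10.53 for the list. Peaks with the hexamer were also wider, with medians of 435 bp against 322 bp, and the part of the width in the difference was not tested.

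Other motifs were rarer. TGANTCA was present in 6 of the 27 peaks, at Cadm1, Wdfy4, Xcr1 and Ly75, or 22.2% (10.6% to 40.8%), against 13.2% of the list and 12.1% of downstream windows. TGACGT, the site of the DC factor zDC, was present in 2 peaks, the Clec9a peak with the highest score and the Wdfy4 peak in E130203B14Rik, and in 1663 of the 15121 peaks. TGCGGT was present in 3 peaks and GAGGAAGT in 2, against 20.1% and 14.6% of the list. The interferon-stimulated response element was present in 0 of the 27 peaks, for which the interval reaches up to 12.5%, and in 6.48% of the list. TGTGGT and TGCGGT differ in 1 base and were counted separately. Over full peaks each of these list values lay inside the Wilson interval for the 27 peaks.

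**Figure D2:**
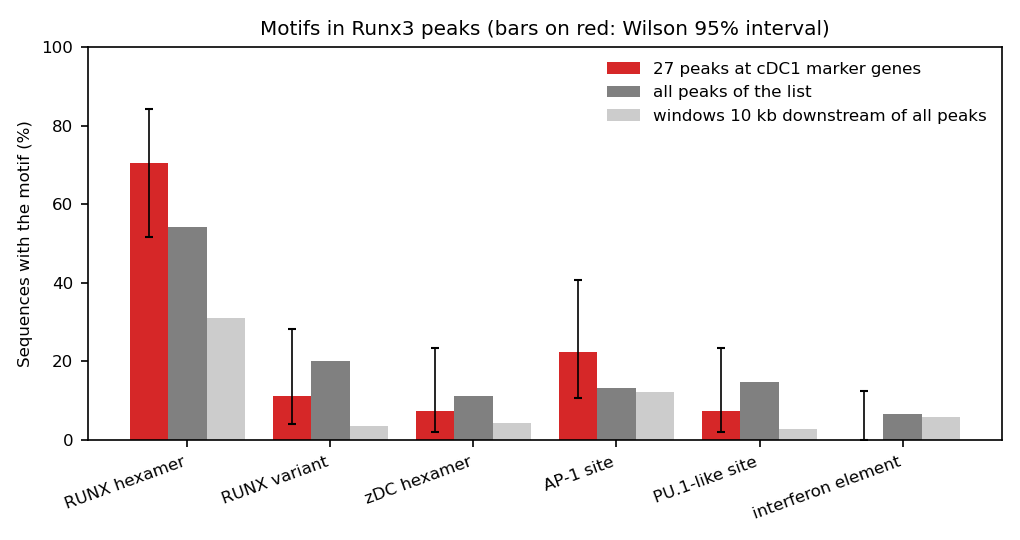
Bars give the percentage of sequences with each motif (vertical axis) for the 27 peaks at the cDC1 marker genes, all 15121 peaks and windows 10 kb downstream of the peaks, and error bars are Wilson 95% intervals. The RUNX hexamer was in 70.4%, 54.0% and 30.9% of them, and for each motif the interval of the 27 peaks holds the value of the whole list.

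Other genes of cDC1 and genes of other splenic cells were counted by the same rule. Of 16 other cDC1 genes 15 matched the annotation, all but Rab7b, and 9 of these had a peak, against 62.6% of all protein-coding genes, with a median of 1 peak per gene. Batf3, a transcription factor needed for cDC1 development, had 9 peaks in its window and Ppt1, a lysosomal thioesterase, had 8. Batf3 was the nearest protein-coding gene for 4 of its 9 peaks, with 0 in its body. Ppt1 was the nearest for 2 of its 8, with 1 in its body. Cd8a, Cd36, Gcet2, Nfil3, Pdia5 and Tlr11 had none. Irf8, another transcription factor on which cDC1 depend, had 1 peak, with a score of 12.38, and it was nearer to another gene. Id2, a further such factor, had 1 peak, with a score of 12.14, and it lay within 1 kb of a TSS of Id2. Of 16 genes of cDC2, the sorted subset, 13 had a peak, with a median of 4.5 peaks per gene and 3.37 per 100 kb. Clec10a, Esam and S1pr1 had none. A peak within 1 kb of a TSS was found at 7 of the 16 cDC2 genes and 3 of the 15 other cDC1 genes. Such a peak was found at 2 of the 8 marker genes and at 24.9% of all protein-coding genes.

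The median of the highest score per gene was 38.11 for the cDC2 genes with a peak, 36.63 for the other cDC1 genes with a peak and 21.50 for the 8 marker genes. Over protein-coding genes with a peak it was 22.33. Genes of plasmacytoid DC had a peak in 7 of 8 cases, of T cells in 7 of 8, of B cells in 6 of 8 and of red pulp macrophages in 4 of 8. The share of protein-coding genes with a peak, 62.6%, stands beside these counts. Nearest to a peak within 50 kb were 5 of 8 plasmacytoid DC, 3 of 8 T cell and 4 of 8 B cell genes. Of the red pulp macrophage genes 2 of 8 were, against 35.4% of protein-coding genes. All these counts come from few genes and were not tested.

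**Figure D3:**
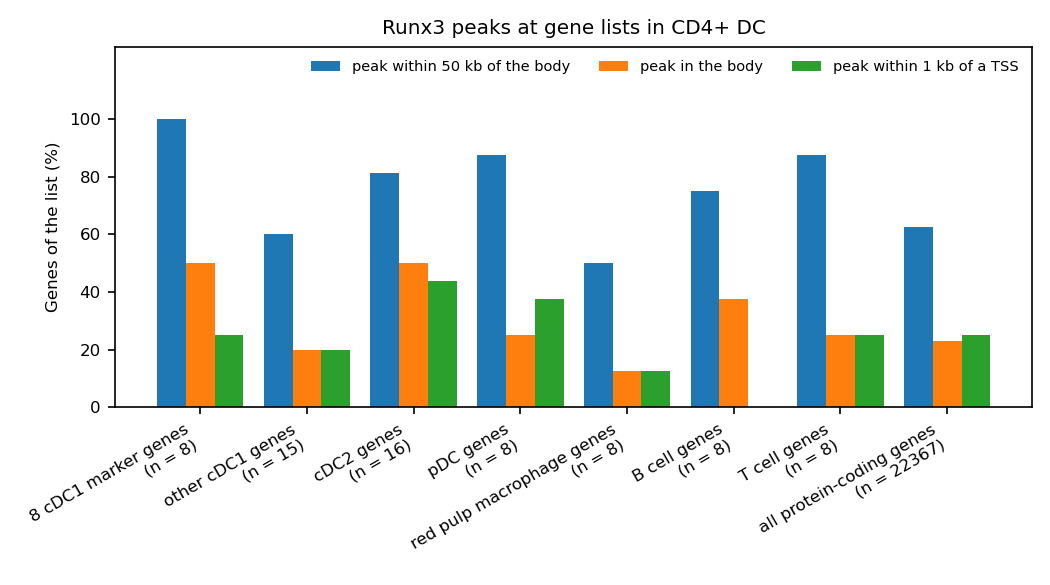
Bars give the percentage of the genes of each list (vertical axis) with a Runx3 peak within 50 kb of the body, in the body, or within 1 kb of a TSS, and n is the number of genes that matched the annotation. All 8 marker genes had a peak within 50 kb, 4 in the body and 2 within 1 kb of a TSS, against 62.6%, 23.2% and 24.9% of protein-coding genes.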

How the data were processed

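Runx3 ChIP-seq was measured in splenic CD4+ DC with 2 immunoprecipitates and 2 inputs. Reads of 50 bp with a unique match to mm9 were placed by the authors with bowtie, and MACS2 called peaks on the pooled replicates. The submitters' processing notes also name CASAVA 1.8. The MACS2 version and threshold are not given in the sources used here. The deposited peak score has no stated unit and served to order peaks within the list. Depth per sample was not analysed here.

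Positions are mm9, counted from 1. Genes of chromosomes 1 to 19, X and Y came from GENCODE M1 and sequence from NCBIM37, the same assembly, on which all peaks lay. Peaks were placed by their centre. Numbers of exons and introns refer to the longest transcript that codes for protein. Percentiles give tied values their mean rank. Distances are signed by the strand of the gene.

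No test was run, since 1 pooled list gives no values per sample. Lists stand beside all protein-coding genes. The members and lists were chosen with earlier results of these data known. All 8 genes were named, with all peaks where a gene had 4 or fewer and otherwise those with the highest and lowest score and the one nearest a TSS. The other Wdfy4 peaks were added after their values were seen. Alternatives were other distance limits, any base of the peak, score limits, joined peaks, the nearest gene, other backgrounds, other TSS and other motif searches. Wilson and distribution-free intervals at 95% cover counting error only. Window counting, joining and motif search were tested on simulated data. Computation used Python 3.11.15, numpy 2.4.6, pandas 2.3.3, scipy 1.17.1 and matplotlib 3.10.9.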

Additional observations from a re-analysis of the deposited data

How the results depend on the processing

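With the gene body alone 4 of the 8 genes had a peak, with 13 peaks, against 23.2% of protein-coding genes, and 84.6% of the peaks held TGTGGT. With a limit of 100 kb the peaks were 41 and the background 72.1%, and with 10 kb the background was 43.4%. With scores at or above the list median, 17 peaks were left, the background was 47.3%, 88.2% of the peaks held TGTGGT, and 1 gene had a peak within 1 kb of a TSS. With scores of the upper quartile, 3 genes and 6 peaks were left, the background was 31.0%, the median score was 48.98, 100% of the peaks held TGTGGT, and 0 genes had a peak within 1 kb of a TSS. These moves follow in part from the alternatives themselves, which take fewer or more peaks. Assignment to the nearest gene gave a background of 35.4%, and all annotated genes gave 53.1%. Within 5 kb of a TSS 5 of the 8 genes had a peak. The share of all protein-coding genes was taken only at 1 kb, so this count has no background beside it. Without Wdfy4, an alternative added after seeing the data, 17 peaks were left. Assignment to the nearest gene left 18 peaks at 6 genes and the limit of 10 kb left 20 peaks at 7 genes. Including these, 30 of the 51 values under an alternative were within 1.5 times the reported count, or, for the background, the median score and the TGTGGT share, inside its 95% interval. No paired analysis was possible because the replicates were pooled before peaks were called, and for the same reason no replicate could be left out. Depth limits how weak a peak could be called.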

Other observations

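More than 1 TGTGGT was found in 10 of the 27 peaks at cDC1 marker genes, or 37.0%, and in 18.5% of the list. These 10 peaks lay at Wdfy4, Clec9a, Cadm1, Xcr1 and Naaa, and were found after the values were seen. In the RefSeq promoter windows of 300 bp on GRCm38.p6, which run from upstream to just past the TSS, 6 of the marker genes have an entry, and those of Wdfy4, Btla and Ly75 hold TGTGGT. Of all 32851 such promoters 16.8% hold it. At Wdfy4 and Btla a Runx3 peak lay within 1 kb of a TSS, and at Ly75 the nearest peak lay 83791 bp from one.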
